A study of Rattus norvegicus with 325 samples.

Results

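The measurements concern 9 genes of autophagy and mitophagy in ageing rat skeletal muscle: Ulk1, Becn1, Map1lc3a, Map1lc3b, Gabarapl1, Sqstm1, Bnip3, Pink1 and Tfeb. They were found by symbol among the 17315 distinct gene symbols of the count tables, each stood on 1 line, and all 9 passed the filter on low counts in every muscle. Bulk RNA was sequenced from the breathing muscle (the diaphragm) and from 3 limb muscles (soleus, gastrocnemius and tibialis anterior) of Sprague Dawley rats, a strain that is not inbred, all male. They were aged 6 months, the young reference, or 9, 12, 18, 21, 24 or 27 months, and the labels name no treatment and no altered gene. Of 325 libraries, 83 were from the diaphragm, 73 from the gastrocnemius, 84 from the soleus and 85 from the tibialis anterior, with 9 to 13 for each muscle and age. The rats of an age were dissected on a single day, and the effects of age and of that day cannot be told apart. Which animal gave which library is not stated, and p-values measure the spread between libraries.

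Autophagy encloses cytoplasm in a double membrane, the autophagosome, and delivers it to the lysosome for breakdown. A kinase complex around Ulk1 and a lipid kinase complex around Becn1 start the membrane, small proteins of the Atg8 family (encoded here by Map1lc3a, Map1lc3b and Gabarapl1) are coupled to its lipids, and receptors such as Sqstm1 tie cargo to them. Mitophagy is the same process applied to mitochondria, marked by the kinase Pink1 or by receptors of the outer mitochondrial membrane such as Bnip3, and Tfeb is a transcription factor of lysosomal and autophagy genes. In muscle this machinery is known for its response to fasting, denervation and mitochondrial damage. Transcript counts do not measure autophagic flux, and in bulk tissue fewer cells of a type and less RNA per cell cannot be told apart.

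Tfeb belongs to a family of factors that bind the letters CACGTG, and promoters of the members were therefore searched for them. Promoters running from 250 bases before to 50 bases after the annotated start were taken from RefSeq (build GRCr8) for 7 members. There was no entry for Map1lc3a and Becn1. The letters CACGTG, which read the same on both strands, occurred in 2 of 7 member promoters, those of Bnip3 and Pink1, and in 6.42% of 33469 rat promoters of the same length. The longer CLEAR motif of lysosomal genes, which contains CACGTG, and the forkhead letters GTAAACA, searched on both strands, were in none of the 7 and in 0.23% and 3.78% of all promoters. The sequences below are those of the members whose transcripts moved most with age, Pink1 at chr5:155825901-155826200 (minus strand), Bnip3 at chr1:203154913-203155212 (minus strand) and Sqstm1 at chr10:35037701-35038000 (minus strand), each written 5′ to 3′ along its gene, with CACGTG in capitals.
Pink1: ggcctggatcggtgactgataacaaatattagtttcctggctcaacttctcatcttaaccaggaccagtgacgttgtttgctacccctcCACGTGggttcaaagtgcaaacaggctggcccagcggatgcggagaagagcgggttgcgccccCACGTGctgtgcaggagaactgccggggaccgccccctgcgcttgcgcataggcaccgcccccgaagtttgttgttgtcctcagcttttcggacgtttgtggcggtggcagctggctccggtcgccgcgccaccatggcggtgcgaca
Bnip3: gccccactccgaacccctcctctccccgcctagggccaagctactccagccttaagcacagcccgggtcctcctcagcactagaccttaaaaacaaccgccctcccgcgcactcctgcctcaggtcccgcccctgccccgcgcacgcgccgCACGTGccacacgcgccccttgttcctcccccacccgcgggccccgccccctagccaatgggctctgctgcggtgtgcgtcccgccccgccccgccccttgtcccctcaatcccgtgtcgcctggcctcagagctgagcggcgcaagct
Sqstm1: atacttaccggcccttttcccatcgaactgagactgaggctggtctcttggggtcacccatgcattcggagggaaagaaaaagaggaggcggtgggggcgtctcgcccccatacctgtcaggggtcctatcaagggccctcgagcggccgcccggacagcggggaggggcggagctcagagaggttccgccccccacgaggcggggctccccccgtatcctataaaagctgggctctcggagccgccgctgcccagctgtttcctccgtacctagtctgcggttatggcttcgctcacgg
The matches in Pink1 began 161 and 98 bases before the start, and the one in Bnip3 began 99 bases before it. The Sqstm1 window held no match.

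The libraries held 17.6 to 85.3 M counts in total. Myh7, the slow myosin heavy chain, had a median of 47514 CPM (counts per M counts of the library) in the soleus at 6 months against 2062 in the tibialis anterior, and Myh4, a fast myosin, had 8.39 against 87432, which fits the muscle labels. All CPM are scaled over the 325 libraries together by trimmed mean of M values (TMM). Changes are log2 differences from 6 months with their standard error (SE), fitted within each muscle on its own scale by limma-voom, and they can differ slightly from the ratio of the medians. A gene is described as risen or fallen when its Benjamini-Hochberg adjusted p over all genes was under 0.05, and as called when the change was also larger than 1.5-fold. One 18-month diaphragm library (replicate 11) stood apart, with the highest level of its group in 7 members and the lowest in Becn1 and Bnip3, for example 719.6 CPM of Sqstm1 where the other 11 libraries held up to 470.0. In the 6-month diaphragm, replicate 0 held 106 CPM of Gabarapl1 beside a group median of 54.0. The gastrocnemius libraries form their own series of running numbers and had a median ribosomal RNA share of 1.96%, so contrasts of this muscle with the others cannot be told apart from that series.

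At 6 months the widest differences between muscles were those of Map1lc3a and Bnip3. Of 54 contrasts (9 members in 6 muscle pairs), 20 were called, where 33.6% of all gene contrasts were, and 44 passed the adjusted p, where 68.8% of all did. Ulk1 and Map1lc3b had no called contrast.

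Map1lc3a, one of the genes for LC3 (the classical autophagosome marker), was highest in the gastrocnemius. Its lowest, median and highest library held 73.2, 95.2 and 143 CPM there, 47.1, 56.4 and 57.9 in the tibialis anterior, 33.0, 37.1 and 42.1 in the diaphragm, and 13.3, 14.8 and 17.4 in the soleus. No library of one muscle overlapped another muscle in this order. The gastrocnemius was 2.72 ± 0.09 (SE) higher than the soleus on the log2 scale (adjusted p = 1.84e-86), whereas the step from the diaphragm to the tibialis anterior was 1.47-fold and not called (adjusted p = 7.80e-10).

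Bnip3 was highest in the soleus. Its soleus libraries ran from 1438 to 1719 CPM (median 1543), well above the diaphragm (525 to 654, median 591), the tibialis anterior (585 to 703, median 644) and the gastrocnemius (399 to 573, median 488), and the diaphragm overlapped both of the latter. The soleus was 2.63-fold above the diaphragm, 3.19-fold above the gastrocnemius and 2.40-fold above the tibialis anterior, and all 3 contrasts were called (highest adjusted p = 9.59e-56).

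Among the remaining members, Pink1 was highest in the gastrocnemius (453 to 637 CPM, median 502), where it was 1.85-fold above both the diaphragm and the tibialis anterior and 1.56-fold above the soleus (highest adjusted p = 1.08e-18). Diaphragm and tibialis anterior did not differ in Pink1 beyond their spread (0.00, 95% interval -0.12 to 0.13). Becn1 was highest in the tibialis anterior (median 81.9 CPM, 76.7 to 92.5), followed by the gastrocnemius (63.9), the soleus (44.4) and the diaphragm (43.6). The last 2 did not differ beyond their spread (adjusted p = 0.223). Tfeb split the muscles into a higher pair, the tibialis anterior and gastrocnemius (medians 75.3 and 69.1 CPM, adjusted p of their difference 0.688), and a lower pair, the diaphragm and soleus (43.8 and 39.0 CPM). Each of the 4 contrasts across these pairs was called, at 1.71-fold to 1.97-fold. Sqstm1 was lowest in the diaphragm, with a called contrast only against the gastrocnemius (1.62-fold, adjusted p = 8.64e-25), and Gabarapl1 differed past 1.5-fold only between gastrocnemius and tibialis anterior (0.68 ± 0.07, adjusted p = 1.38e-19). The plot of 6-month levels shows these orders library by library.

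**Figure D1:**
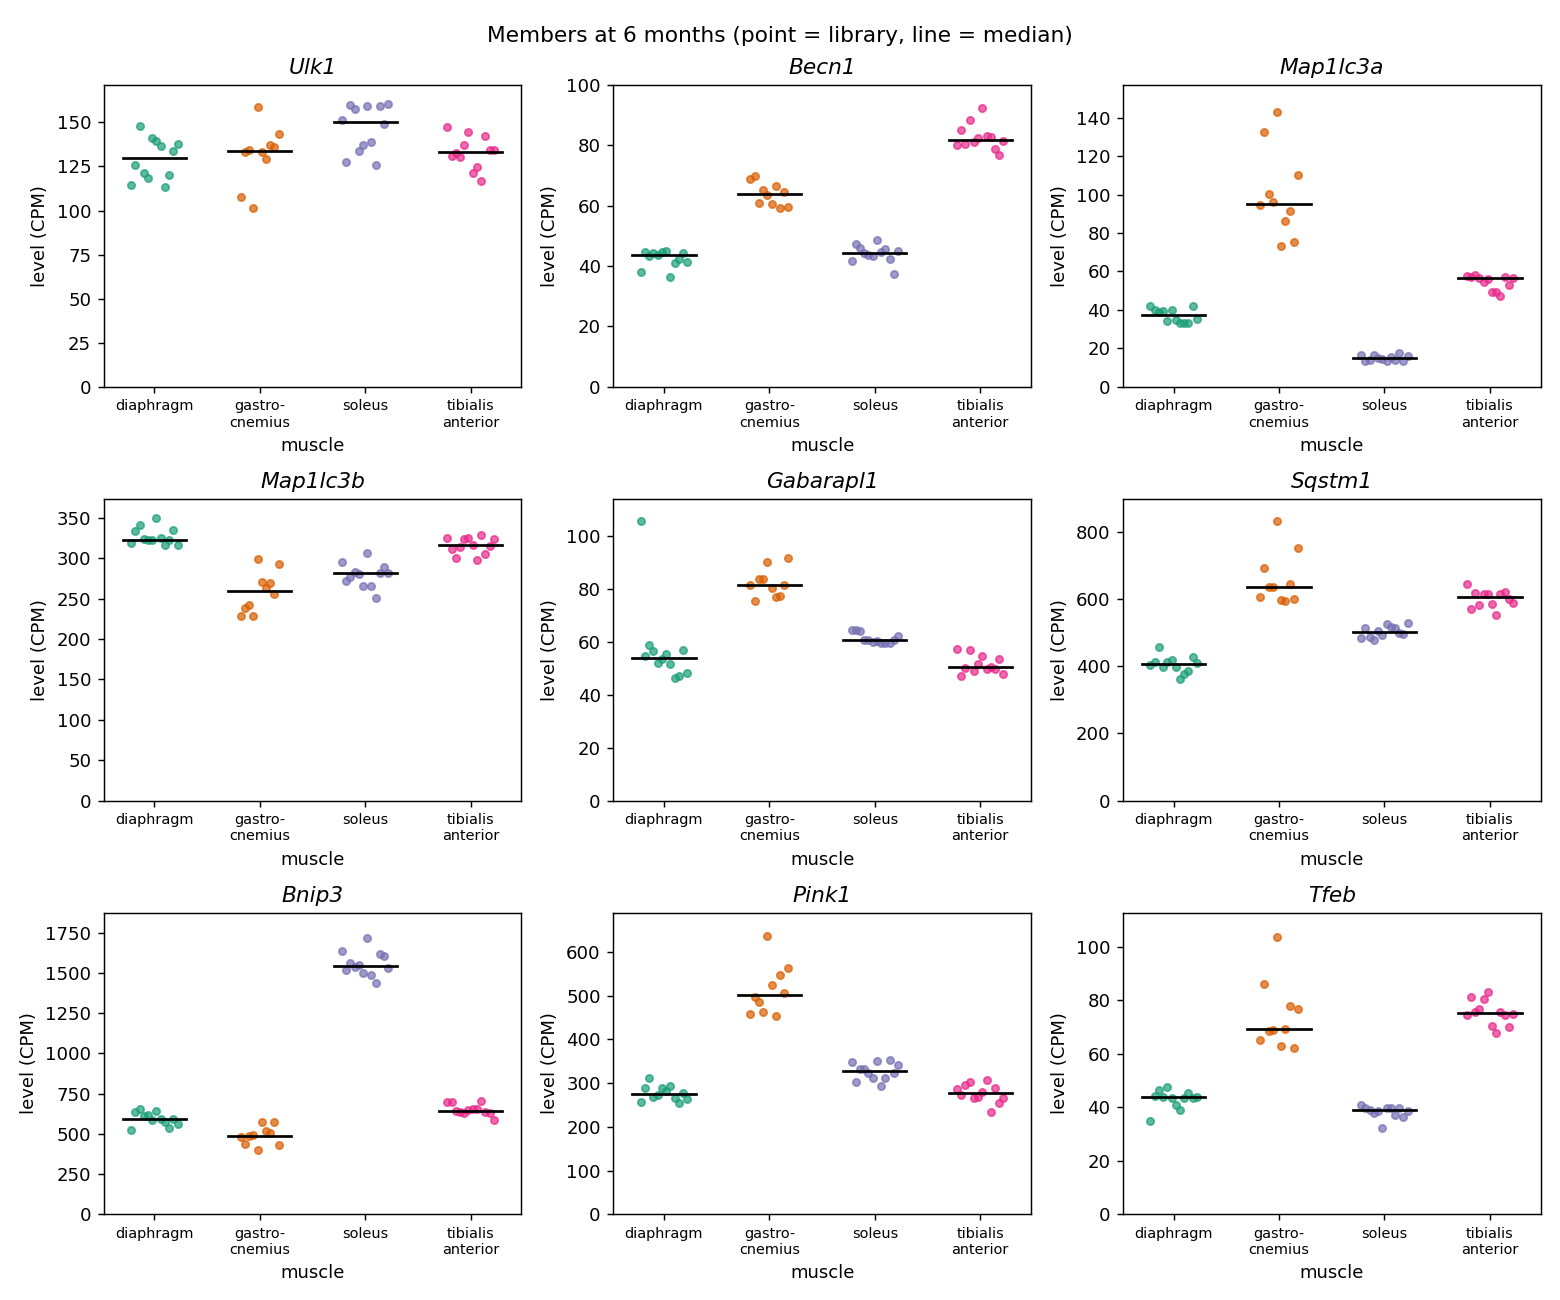
Level of each member at 6 months in CPM (vertical axis, from 0) by muscle (horizontal axis). Points are libraries and bars are medians. Bnip3 in the soleus (1438 to 1719 CPM) and Map1lc3a in the gastrocnemius (73.2 to 143 CPM) lie above every library of the other muscles, while the muscles overlap for Ulk1. One diaphragm library lies far above its group in Gabarapl1, at 106 CPM.

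From 6 to 27 months few members passed 1.5-fold, and those that did differed by muscle. Of 9 members, the diaphragm had 0 called (beside 7.52% of all its genes), the gastrocnemius 2 (22.8%), the soleus 1 (15%) and the tibialis anterior 1 (27.6%). The diaphragm count was also 0 with edgeR, with DESeq2, and at an unadjusted p under 0.05. Small changes were common, since 6, 7, 7 and 8 members passed the adjusted p in that order of muscles, where 45%, 62.1%, 53.8% and 74.2% of all genes did. The called members were Pink1 and Map1lc3a, both lower in the gastrocnemius, Bnip3, lower in the soleus, and Sqstm1, higher in the tibialis anterior. The libraries of 27 and 6 months did not overlap for 0, 1, 1 and 4 members, where 2.69%, 13.1%, 5.38% and 18.6% of genes did not.

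**Figure D2:**
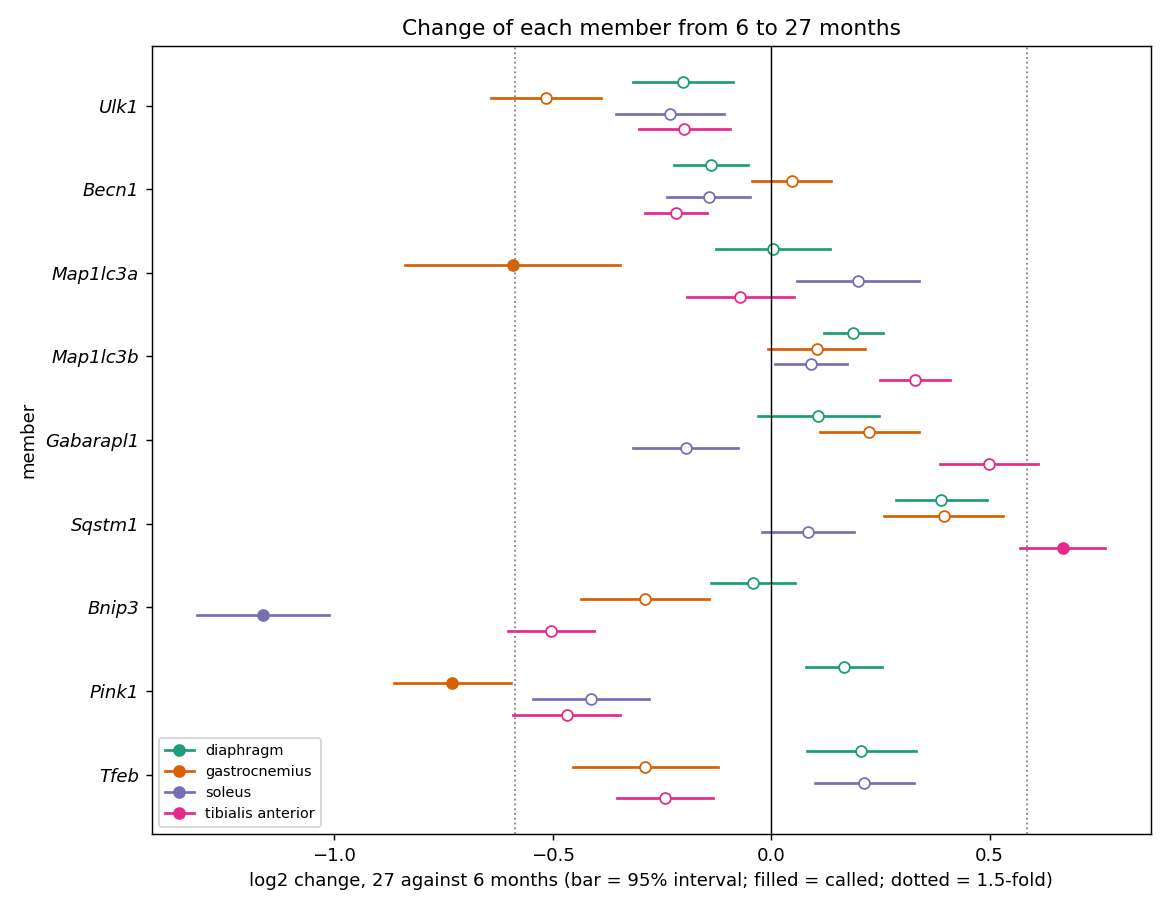
Log2 change from 6 to 27 months (horizontal axis) of each member (vertical axis), with muscles shown by colour. Points are estimates from limma-voom, filled where called, bars are 95% intervals, and dotted lines mark 1.5-fold. The largest change is that of Bnip3 in the soleus (-1.16), and Pink1 lies above 0 in the diaphragm (0.17) and below it in the other muscles.

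Ulk1, whose kinase receives signals of nutrient and energy supply, fell in all 4 muscles by 27 months, although with total-count scaling its tibialis anterior value was 0.12 and its soleus value, at -0.081, did not pass the test. In the gastrocnemius the lowest, median and highest library went from 102, 134 and 159 CPM at 6 months to 71.7, 91.3 and 105 at 27 months, and the 2 ranges overlapped only at their edges. The change was -0.52 ± 0.06 (adjusted p = 2.15e-10). It was -0.20 ± 0.06 for the diaphragm, -0.23 ± 0.06 for soleus and -0.20 ± 0.05 for tibialis anterior (adjusted p = 0.00351, 0.00134 and 0.000642). In the main fit the gastrocnemius fell further than each other muscle, the interaction being -0.28 against the soleus, -0.32 against the tibialis anterior and, as diaphragm minus gastrocnemius, 0.36 (highest adjusted p = 0.00783). The size of this difference depends on the scaling. Over the alternatives other than leave-one-out, the Ulk1 change ran from -0.54 to -0.23 in the gastrocnemius and from -0.21 to -0.16 in the diaphragm. Becn1, a regulatory subunit of the lipid kinase complex, fell in the tibialis anterior by 0.22 ± 0.04, the soleus by 0.14 ± 0.05 and the diaphragm by 0.14 ± 0.04 (adjusted p = 1.20e-07, 0.00994 and 0.00692), while total-count scaling turned the first 2 values to 0.10 and 0.0056. Its gastrocnemius value was 0.05 ± 0.05 (adjusted p = 0.375), and with total-count scaling it was 0.33 and passed (adjusted p = 2.83e-07). Total-count scaling moved the median change of all genes by 0.04 (diaphragm), 0.28 (gastrocnemius), 0.15 (soleus) and 0.32 (tibialis anterior).

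The 3 Atg8 genes did not move together. Map1lc3a in the gastrocnemius went from 73.2, 95.2 and 143 CPM (lowest, median and highest of 10 libraries) to 47.3, 70.2 and 82.1 (11 libraries), with overlapping ranges. Its change of -0.59 ± 0.13 (adjusted p = 4.05e-05) barely passed 1.5-fold, and leaving out any of 7 libraries put it under that threshold, at -0.58 to -0.54 (27-month replicates 5, 6, 9 and 10, 6-month replicates 1, 4 and 9). In the soleus Map1lc3a rose slightly, by 0.20 ± 0.07 (adjusted p = 0.0139), from a median of 14.8 to 16.6 CPM, and the values of the diaphragm (0.00 ± 0.07) and tibialis anterior (-0.07 ± 0.06) did not pass the test.

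Map1lc3b, the LC3 gene most often used to follow autophagosomes, and Gabarapl1, a relative from the GABARAP branch, were higher in the old tibialis anterior. Map1lc3b libraries held 297, 316 and 329 CPM (lowest, median and highest) at 6 months and 349, 387 and 509.5 at 27 months. Gabarapl1 went from 47.0, 50.3 and 57.1 to 61.4, 73.3 and 85.9 CPM. For both genes every 27-month library lay above every 6-month library. The changes were 0.33 ± 0.04 and 0.50 ± 0.06 (adjusted p = 3.39e-11 and 1.89e-12), both under 1.5-fold except with total-count scaling (0.65 and 0.82). Gabarapl1 also rose in the gastrocnemius (0.22 ± 0.06, adjusted p = 0.000612) but fell in the soleus (-0.20 ± 0.06, adjusted p = 0.00523; -0.046 and not past the test with total-count scaling), and Map1lc3b rose in the diaphragm (0.19 ± 0.03, adjusted p = 5.57e-06). In the diaphragm the Gabarapl1 value of 0.11 ± 0.07 rested on 1 young library at 106 CPM, and without it (6-month replicate 0) the value was 0.21 with an adjusted p of 0.00269. RefSeq names close copies of Map1lc3b (Map1lc3b2 and pseudogenes), and pseudogenes of Sqstm1 and Bnip3. How reads shared with such copies were counted is not given in the sources used here, which leaves the levels of these 3 genes uncertain.

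Sqstm1, which encodes the cargo receptor p62, had the largest rise among the members. Its tibialis anterior libraries held 553, 606 and 645 CPM (lowest, median and highest) at 6 months and 800, 924 and 1207 at 27 months. The groups did not overlap, and this was also so at 18, 21 and 24 months, when 2.33%, 1.22% and 9.05% of genes did not. The change was 0.67 ± 0.05 at 27 months (adjusted p = 1.23e-20), and it stayed between 0.64 and 0.69 when any single library of either age was left out. Sqstm1 also rose in the diaphragm (0.39 ± 0.05, adjusted p = 5.85e-09) and gastrocnemius (0.39 ± 0.07, adjusted p = 1.47e-06), from medians of 406 and 635 to 537 and 828 CPM, with overlapping libraries. In the soleus it was 0.08 ± 0.05 (adjusted p = 0.182), or 0.23 and past the test with total-count scaling (adjusted p = 7.20e-05).

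Markers of other cells also moved from 6 to 27 months, in all 4 muscles. Of 12 macrophage genes, 11 were called higher in both the gastrocnemius and the tibialis anterior at 27 months, 4 in the soleus and 1 in the diaphragm, and none of the 12 was at 0 in any of these groups. The summed macrophage level was 53.5 to 84.0 CPM at 6 and 114 to 241 CPM at 27 months in the tibialis anterior, 115 to 201 and 217 to 384 in the gastrocnemius, 181 to 287 and 280.0 to 389 in the soleus, and 144 to 242 and 211 to 337 in the diaphragm. Of 6 adipocyte genes, 4 were called higher in each limb muscle and 1 lower in the diaphragm. Of 6 fibroblast genes none was called higher, although 3 passed the adjusted p upward in each limb muscle, and 3 were called lower in the diaphragm and 1 each in gastrocnemius and soleus. Their part in the member changes was not tested.

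Bnip3, a receptor of the outer mitochondrial membrane induced by low oxygen, had the largest change of the members. In the soleus its lowest, median and highest library fell from 1438, 1543 and 1719 CPM at 6 months to 393, 664 and 1041 at 27 months, and no library of the old group reached the young range. The change was -1.16 ± 0.08 (adjusted p = 2.80e-22), and -1.22 to -1.09 when any single library was left out. Slow-fibre genes moved with it: 6 of 6 fell and 1 was called lower, their sum going from 61032 to 77504 CPM at 6 months to 25673 to 79011 at 27 months, while all 7 fast-fibre genes were called higher and their sum went from 586 to 2048 CPM to 1341 to 7038, with no marker at 0. Among the 12 old soleus libraries the one with the lowest Bnip3 (393 CPM) also had the lowest Myh7 (17823 CPM), and the one with the highest Bnip3 (1041 CPM) had the highest Myh7 (55317 CPM). The 6-month soleus ranges were 42172 to 54697 CPM for Myh7 and 1438 to 1719 CPM for Bnip3. These 2 of 12 libraries were picked after their values were seen, and the part of fibre type in the Bnip3 change was not tested. In the tibialis anterior 2 slow-fibre genes were called lower, and in the diaphragm 1 fast-fibre gene was called higher.

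Bnip3 also fell in the tibialis anterior, from 585, 644 and 703 to 374, 449 and 574 CPM (-0.50 ± 0.05, adjusted p = 8.29e-15). These ranges were separate on the common scale but overlapped on the muscle's own scale. The gastrocnemius value of Bnip3 was -0.29 ± 0.07 (adjusted p = 0.000657), but with total-count scaling it was -0.0040 and did not pass (adjusted p = 0.97). The diaphragm, at -0.04 ± 0.05, did not pass the test (adjusted p = 0.522).

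Pink1, the kinase that gathers on damaged mitochondria and recruits Parkin, fell in the 3 limb muscles and rose in the diaphragm. Gastrocnemius libraries held 453, 502 and 637 CPM (lowest, median and highest) at 6 months and 257, 309.9 and 384 at 27 months, without overlap. The change was -0.73 ± 0.07 (adjusted p = 8.83e-15), and with total-count scaling it was -0.45, no longer called. The falls in the soleus (-0.41 ± 0.07, adjusted p = 2.37e-07; median 328 to 237 CPM) and tibialis anterior (-0.47 ± 0.06, adjusted p = 3.24e-10; median 277 to 211 CPM) had overlapping libraries and stayed under 1.5-fold. In the diaphragm the median went from 276 to 337 CPM, with a change of 0.17 ± 0.04 (adjusted p = 0.00144). Fast-fibre genes moved in the gastrocnemius and tibialis anterior, where 3 and 2 of 7 were called lower and the sums went from 163189 to 201830 CPM to 66246 to 146126, and from 191577 to 217047 to 61589 to 184044. Their part in the Pink1 values was not tested.

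Tfeb moved up in some muscles and down in others. It rose in the diaphragm (0.21 ± 0.06, adjusted p = 0.00591), from 35.1, 43.8 and 47.6 to 35.1, 53.4 and 62.9 CPM, and in the soleus (0.21 ± 0.06, adjusted p = 0.00112), from 32.3, 39.0 and 40.8 to 36.4, 43.0 and 54.4 CPM. It fell in the gastrocnemius (-0.29 ± 0.08, adjusted p = 0.00245) and tibialis anterior (-0.24 ± 0.06, adjusted p = 7.95e-05), but with total-count scaling neither passed the test, at -0.0062 and 0.077 (adjusted p = 0.935 and 0.133). The ranges overlapped in every muscle. In GRCr8 Tfeb overlaps a long non-coding gene and Becn1 overlaps Cntd1, and whether the counting used the strand is not given in the sources used here.

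Over the ages between, more members passed the test at 24 and 27 months than at 9 and 12 months, and all comparisons of a muscle share the same 6-month libraries. At 9 months no member passed the adjusted p in limma-voom, edgeR or DESeq2 (0.424%, 0.312%, 0.559% and 0.00851% of genes did in limma-voom, in the order diaphragm, gastrocnemius, soleus, tibialis anterior), and 2, 0, 3 and 3 had an unadjusted p under 0.05. At 12 months 1, 0, 2 and 0 passed, where 3.51%, 2.24%, 2.55% and 0.706% of genes did. In the gastrocnemius and tibialis anterior 1 and 3 had an unadjusted p under 0.05, and edgeR and DESeq2 also passed none. The 12-month members were Gabarapl1, lower in the diaphragm (-0.29 ± 0.07, adjusted p = 0.0122) and soleus (-0.34 ± 0.06, adjusted p = 0.000349), and Becn1, lower in the soleus (-0.19 ± 0.05, adjusted p = 0.0241). The diaphragm reference for Gabarapl1 includes the 6-month library at 106 CPM, and the 12-month value without that library was not examined. The 12-month Gabarapl1 libraries of the soleus (40.5 to 57.1 CPM) all lay under those of 6 months (59.5 to 64.4 CPM), where 0.133% of genes did not overlap. Outside the gastrocnemius, all 12-month libraries and 1 library of each muscle at 21 months belong to a separate series of running numbers, and the 12-month values of these muscles cannot be told apart from it.

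At 18 months 2, 1, 3 and 5 members passed, where 23.3%, 13.3%, 26.1% and 35.3% of genes did. Pink1 was higher then in the diaphragm (0.22 ± 0.04, adjusted p = 0.000216), soleus (0.27 ± 0.07, adjusted p = 0.00172) and tibialis anterior (0.20 ± 0.06, adjusted p = 0.0121), before it fell in the last 2. Median Pink1 in the soleus was 328 CPM at 6, 393 at 18, 327 at 21, 294 at 24 and 237 at 27 months. Without the diaphragm library that stood apart, Pink1 was still higher (0.18 ± 0.04, adjusted p = 0.000552), Becn1 no longer passed (adjusted p = 0.0502) and Map1lc3a was lower (-0.18 ± 0.06, adjusted p = 0.0329). Bnip3 in the soleus was already lower at 18 months (-0.40 ± 0.08, adjusted p = 4.08e-05), when its libraries (1023 to 1268 CPM) all lay under those of 6 months. At 18 months 1.42% of soleus genes did not overlap, and at 24 months, when Bnip3 and Gabarapl1 both lay under the young range, 1.72%.

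At 21 months 1, 2, 2 and 6 members passed, where 8.83%, 18.7%, 13.5% and 27% of genes did, and at 24 months 1, 7, 5 and 9, where 10.8%, 56.9%, 30.7% and 57.3% did. Over the 6 later ages, calls numbered 0, 3, 2 and 2 of 54 tests (9 members at 6 ages), in the order diaphragm, gastrocnemius, soleus, tibialis anterior. Members called at any age numbered 0, 2, 1 and 1, where 9.49%, 26.5%, 17.9% and 29.5% of genes were. Called members at 24 months numbered 0, 1, 1 and 1, where 2.68%, 18.8%, 6.51% and 14.5% of genes were called. They were Map1lc3a in the gastrocnemius (-0.71 ± 0.13, adjusted p = 6.43e-06), Bnip3 in the soleus (-0.63 ± 0.08, adjusted p = 7.81e-10) and Sqstm1 in the tibialis anterior (0.66 ± 0.05, adjusted p = 2.89e-19). Map1lc3a and Tfeb in the gastrocnemius were lower at 24 than at 27 months by median (55.2 and 70.2 CPM for Map1lc3a, 48.4 and 57.7 for Tfeb), each with a 6-month median above both (95.2 and 69.1).

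The shape over the 7 ages was classed by comparing no trend, a straight line and a logistic curve with the Bayesian information criterion, as a description. Pink1 was late falling in the 3 limb muscles, with inflections at 25.5 (gastrocnemius), 23.75 (soleus) and 23.5 months (tibialis anterior), and had no trend in the diaphragm. Bnip3 was late falling in the soleus and tibialis anterior and linear in the gastrocnemius, and Sqstm1 rose linearly in the gastrocnemius and tibialis anterior and late in the diaphragm. Ulk1 had a falling trend in every muscle. A trend was found for 3, 8, 6 and 8 of 9 members, in the same order of muscles as above, where 29.6%, 55.1%, 40.2% and 64.9% of genes had one. Logistic classes with an inflection at 27 months, the end of the search, mean only that the change came last.

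**Figure D3:**
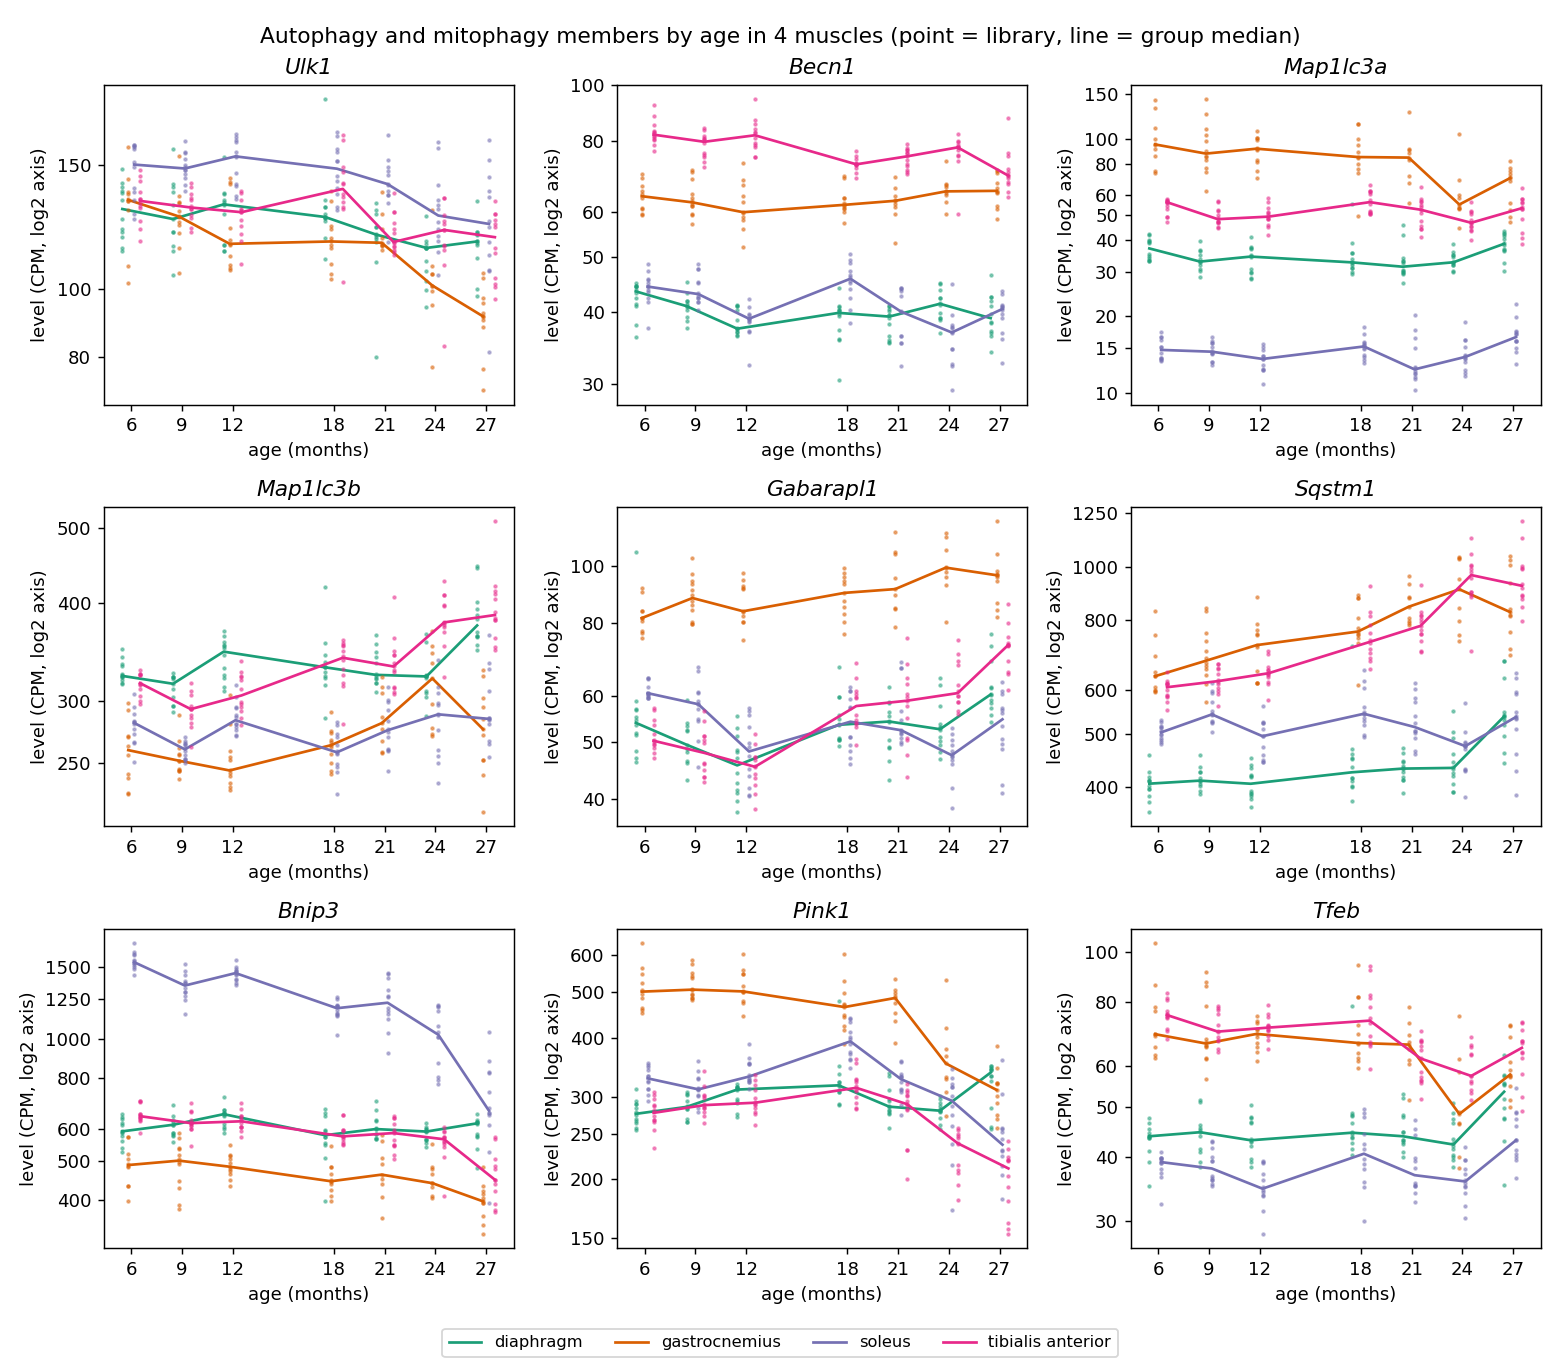
Level of each member in CPM (vertical axis, log2 scale) at the 7 ages in months (horizontal axis). Points are libraries, coloured by muscle, and lines join group medians. Bnip3 in the soleus declines from a median of 1543 to 664 CPM, Sqstm1 in the tibialis anterior climbs from 606 to 924 CPM, and Pink1 in the gastrocnemius drops from 502 to 309.9 CPM mostly after 21 months.

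Whether the change from 6 to 27 months differed between muscles was tested as an interaction in a fit of all libraries. Of 54 member contrasts, 10 were called and 35 passed the adjusted p, where 15.2% and 40.3% of all gene contrasts did. Pink1 separated the diaphragm from all 3 limb muscles, by 0.95 ± 0.09 from the gastrocnemius, 0.64 ± 0.09 from the soleus and 0.69 ± 0.09 from the tibialis anterior (highest adjusted p = 3.07e-10). Bnip3 separated the soleus from all 3 others, at 1.18 ± 0.09 for diaphragm minus soleus, 0.88 ± 0.09 for gastrocnemius minus soleus and -0.67 ± 0.09 for soleus minus tibialis anterior (highest adjusted p = 1.17e-11). Map1lc3a in the gastrocnemius differed from the diaphragm and the soleus, and Gabarapl1 and Sqstm1 differed between soleus and tibialis anterior. Tfeb had no call, yet its change differed by 0.54 between diaphragm and gastrocnemius, 0.50 between diaphragm and tibialis anterior, 0.45 between soleus and tibialis anterior and, as gastrocnemius minus soleus, -0.49 (highest adjusted p = 4.08e-05). Map1lc3b, Ulk1 and Becn1 had no call either. Total-count scaling moved the median change of all genes unequally, by 0.04 (diaphragm), 0.28 (gastrocnemius), 0.15 (soleus) and 0.32 (tibialis anterior). The sizes of these differences between muscles therefore depend on the scaling.

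The other genes of the pathway were read from 5 lists, of which 82 of 85 genes were listed and tested. Few of them passed 1.5-fold at 27 months. The calls higher and lower numbered 0 and 2 for the diaphragm, 1 and 5 for the gastrocnemius, 0 and 1 for the soleus, and 3 and 4 for the tibialis anterior. The shares of all genes called higher were 3.27%, 15.1%, 9.21% and 17.2%, and called lower 4.25%, 7.76%, 5.78% and 10.4%. These 2 counts of 0 were also 0 in edgeR, in DESeq2 and at an unadjusted p under 0.05. The median change over the 82 genes was 0.08, -0.08, -0.01 and -0.04 in that order, beside 0.00, 0.04, 0.02 and 0.02 over all genes.

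Among 14 genes of initiation and membrane supply, Rb1cc1, the scaffold of the Ulk1 complex, was called lower in the diaphragm (-0.88 ± 0.10, adjusted p = 4.80e-11) and tibialis anterior (-0.75 ± 0.10, adjusted p = 1.56e-10). It fell by less than 1.5-fold in the soleus (-0.39 ± 0.08, adjusted p = 4.94e-05), and its gastrocnemius value was 0.36 ± 0.18 (adjusted p = 0.0724). Nrbf2, a subunit of the Becn1 lipid kinase complex, was called lower in the gastrocnemius (-0.68 ± 0.12, adjusted p = 1.13e-06) and tibialis anterior (-0.99 ± 0.09, adjusted p = 2.76e-16). It also fell, without a call, in the diaphragm (-0.56 ± 0.08, adjusted p = 3.83e-08) and soleus (-0.25 ± 0.07, adjusted p = 0.00131). Pik3r4, another subunit, was called higher in the tibialis anterior (0.69 ± 0.07, adjusted p = 1.32e-14). It rose by less than 1.5-fold in the diaphragm (0.16 ± 0.03), gastrocnemius (0.42 ± 0.06) and soleus (0.19 ± 0.04), with a highest adjusted p of 3.815e-05. Of 12 Atg8 and conjugation genes, and of 12 genes of fusion with lysosomes, none was called in any muscle in limma-voom, in edgeR or at an unadjusted p under 0.05, while DESeq2 called 1 conjugation gene lower in the gastrocnemius.

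In the 14 receptor and mitophagy genes the calls were all falls. They were Tax1bp1, a cargo receptor, in the diaphragm (-0.65 ± 0.10, adjusted p = 4.84e-08), Optn, another receptor, in the soleus (-0.60 ± 0.08, adjusted p = 1.12e-10), and Mul1, a ubiquitin ligase of the outer mitochondrial membrane, in the gastrocnemius (-0.76 ± 0.08, adjusted p = 2.23e-12) and tibialis anterior (-0.63 ± 0.08, adjusted p = 2.24e-11). Tax1bp1 had the opposite direction in the gastrocnemius, where it rose by less than 1.5-fold (0.51 ± 0.16, adjusted p = 0.0055). Optn was not called in edgeR or DESeq2. Among 30 lysosomal genes and regulators, Ctsl, the protease cathepsin L, had the largest rise, 1.29 ± 0.13 in the gastrocnemius and 1.35 ± 0.12 in the tibialis anterior (adjusted p = 3.64e-13 and 3.41e-17). Psap, which gives the saposins of lipid breakdown, fell in the gastrocnemius (-0.64 ± 0.07, adjusted p = 1.25e-11), and Rragd, a Rag GTPase of nutrient sensing at the lysosome, fell in the tibialis anterior (-1.14 ± 0.12, adjusted p = 3.37e-14). Of 12 macrophage markers, 11 were called higher in gastrocnemius and tibialis anterior alike, and their part in the Ctsl values was not tested.

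**Figure D4:**
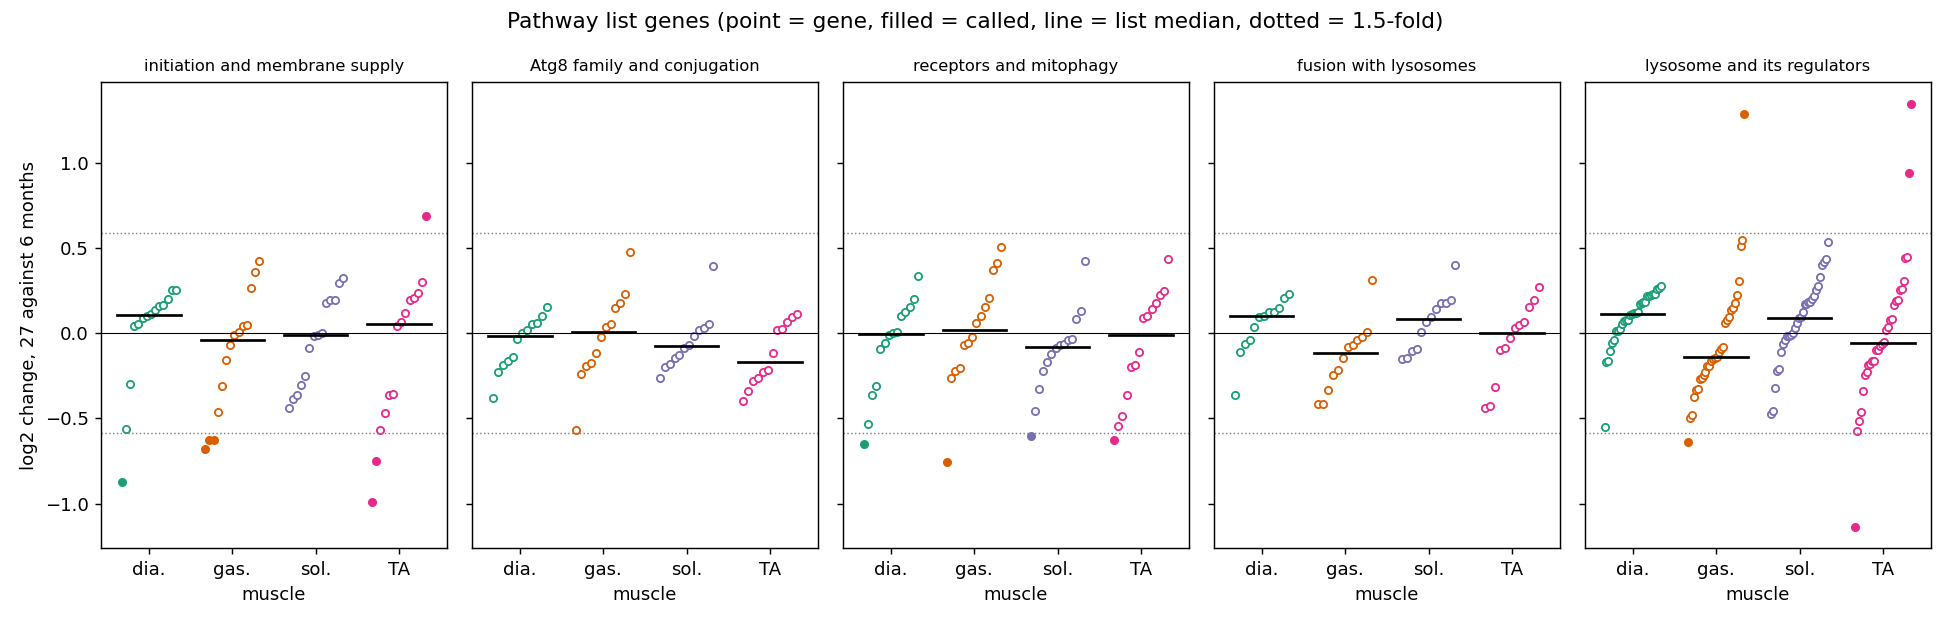
Log2 change from 6 to 27 months (vertical axis) of the other pathway genes in 5 lists, by muscle (horizontal axis; dia. diaphragm, gas. gastrocnemius, sol. soleus, TA tibialis anterior). Points are genes, filled where called, bars are list medians and dotted lines mark 1.5-fold. Medians lie close to 0 in every list, and the filled points farthest from 0 are Ctsl (1.29 and 1.35) and Rragd (-1.14).

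The genes whose pattern was most like each member's were found over the 28 muscle and age means, after each muscle's own mean was subtracted, among 8170 genes. Pearson's r is given as a description, since these means share libraries, scaling and collection days. The 2 nearest were Rnf114 and Usp10 for Pink1 (both 0.97), Gyg1 and Usp13 for Bnip3 (0.967 and 0.961), Ddt and Ascc2 for Sqstm1 (0.949 and 0.941), and Abhd4 and Med15 for Map1lc3b (0.943 and 0.938). For Ulk1 they were Pacs1 and Foxj2 (0.929 and 0.917), for Map1lc3a March2 and Mprip (0.926 and 0.883), for Tfeb March2 and Ramp2 (0.915 and 0.905), for Becn1 Gpatch11 and Aimp1 (0.903 and 0.81), and for Gabarapl1 Trit1 and Ppp4c (0.885 and 0.881). March2 was thus near both Map1lc3a and Tfeb. Among the members themselves the highest values were those of Ulk1 with Pink1 (0.837), Gabarapl1 with Sqstm1 (0.827) and Map1lc3a with Tfeb (0.823).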

How the data were processed

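Per the labels and the stated methods, muscle kept in RNAlater gave total RNA, ribosomal RNA was removed, strand-specific libraries were read in pairs, and the authors counted reads with ArrayStudio on the B6.0 rat reference and an in-house RefSeq gene model. The deposited values are raw counts per gene, 1 file per library, used as deposited. Lines of the same symbol were summed. Groups came from the titles.

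Genes were filtered by filterByExpr (minimum count 10, total 15), scaled by TMM (edgeR 4.0.16) and fitted with limma-voom (limma 3.58.1, R 4.3.3), all ages of a muscle together, each age against 6 months, two-sided. A call needed a Benjamini-Hochberg adjusted p under 0.05 and over 1.5-fold. Muscle contrasts and interactions used all 325 libraries. Trends needed a Bayesian information criterion over 6 below no trend, and a logistic form over 2 below a line. The fits were tested on simulated data.

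Alternatives were RLE and total-count scaling, no filter, edgeR, DESeq2 1.42.0, quality weights, Bonferroni, a 2-fold threshold, a replicate block, leave-one-out and leaving out a running-number series. The stated methods give Bonferroni, the stated results another threshold. Members and lists were chosen with earlier results of these data known. Named genes are the 9 members, the list gene with the largest called rise and fall per list and muscle (mean log2 CPM over 0), the 2 genes most like each member (mean log2 CPM over 2 in every muscle), Myh7 and Myh4. Soleus libraries compared for Bnip3 and Myh7, and libraries standing apart, were picked after their values were seen. Macrophage, adipocyte, fibroblast, slow-fibre and fast-fibre markers were read as lists. No protein sequences were used here.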

Additional observations from a re-analysis of the deposited data

Results flagged for a closer look

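In 10 of 54 contrasts the change of a member from 6 to 27 months differed between 2 muscles by more than 1.5-fold. These were calls in the interaction test of limma-voom, with all p-values adjusted over all genes, where 15.2% of all gene contrasts were called. For Pink1 the diaphragm exceeded the gastrocnemius by 0.95 (log2, adjusted p = 2.00e-18), the tibialis anterior by 0.69 (adjusted p = 3.69e-12) and the soleus by 0.64 (adjusted p = 3.07e-10). For Bnip3 the diaphragm exceeded the soleus by 1.18 (adjusted p = 8.53e-29) and the gastrocnemius exceeded it by 0.88 (adjusted p = 2.27e-17), and soleus minus tibialis anterior was -0.67 (adjusted p = 1.17e-11). For Map1lc3a, diaphragm minus gastrocnemius was 0.65 (adjusted p = 1.17e-06) and gastrocnemius minus soleus -0.78 (adjusted p = 1.36e-07). Soleus minus tibialis anterior was -0.70 for Gabarapl1 (adjusted p = 2.64e-12) and -0.59 for Sqstm1 (adjusted p = 1.08e-10). The sizes of all these differences depend on the scaling, since total-count scaling moved the median change of all genes unequally between muscles. Dixon's criterion was applied only to groups of up to 10 libraries, which were the gastrocnemius at 6, 21 and 24 months. It set no library apart there for any member, in 27 screens. Every larger group was left out, including the diaphragm groups of 6 and 18 months whose outlying libraries are described above.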

How the results depend on the processing

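Age and collection day cannot be told apart in any comparison, and gastrocnemius contrasts cannot be told apart from its library series. Over all alternatives, 524 counts stayed within 1.5 times and 46 did not, while 1104 member changes kept their sign and their call or lack of one, 12 lost the call, 3 gained one and 15 changed sign. Most of these refits only left out 1 library (21 to 24 refits per muscle, beside 8 other settings), so the totals say little about the other settings. Of the changes in sign, 10 were those of Map1lc3a in the diaphragm on leaving out a library. Bonferroni left 1 called member in the gastrocnemius, Pink1, and Map1lc3a lost its call (p = 0.141). It left 2, 3 and 2 members past the adjusted p in the diaphragm, gastrocnemius and soleus. Calls over 6 ages, counted by member and age, were 3, 2 and 2 in the gastrocnemius, soleus and tibialis anterior. A 2-fold threshold left 0, 1 and 0 of these, 0 called members at 27 months in the gastrocnemius and tibialis anterior, and 0 list genes called lower in the diaphragm, gastrocnemius and soleus and 1 higher and 1 lower in the tibialis anterior. It left 7 muscle contrasts at 6 months and 1 interaction. Total-count scaling gave 1 called member at 27 months in the gastrocnemius and 3 in the tibialis anterior, 1 (soleus) and 4 (tibialis anterior) calls over 6 ages, 11 list genes higher and 0 lower in the gastrocnemius, 1 and 0 in the soleus, and 9 and 2 in the tibialis anterior. Calls over all genes at 27 months went with it from 2708 to 3632 of 11865 in the gastrocnemius, from 1825 to 2086 of 12175 in the soleus and from 3245 to 4065 of 11754 in the tibialis anterior. In the gastrocnemius it called Sqstm1 (0.68) and not Map1lc3a (-0.31) or Pink1 (-0.45), and Map1lc3b passed the adjusted p there (0.39) and in the soleus (0.24). In the tibialis anterior it turned Map1lc3a to 0.25, Ulk1 to 0.12, Becn1 to 0.10 and Tfeb to 0.077, and in the soleus Becn1 to 0.0056. Quality weights gave 1 called member in the gastrocnemius, 2 list genes higher and 2 lower there, 5 lower in the diaphragm, 0 lower in the soleus, and 1 soleus call over 6 ages. Over all genes they called 2568 in the gastrocnemius, 1032 in the diaphragm and 1812 in the soleus, beside 2708, 905 and 1825 in the main fit. EdgeR and DESeq2 gave 0 list genes lower in the soleus. The causes were not tested beyond the shift of the median change under total-count scaling.

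The replicate numbers do not pair libraries by the labels. Across muscles at 1 age, 260 of 468 same-numbered pairs correlated over 0.1, and in 3 of 42 comparisons all did. The median correlation over these comparisons was 0.147 for same-numbered pairs and -0.015 for other pairs. A library correlated best with its own number in 236 of 500 cases without the gastrocnemius and 96 of 436 with it, a hint from the data only. The main contrasts between muscles treated all libraries as independent, although some may share a rat. Within a muscle, the replicate block joined same-numbered libraries of different ages. These come from different rats, so that fit does not block by animal. Across ages in 1 muscle, the median correlation was 0.011 for same-numbered and -0.0012 for other pairs. The block left 1 called member in the gastrocnemius, Pink1, since Map1lc3a, at -0.57, was under 1.5-fold, and moved no other count by over 1.5 times.

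Leaving out 1 library at a time, called members ranged from 1 to 2 in the gastrocnemius. Soleus list genes called lower ranged from 0 to 1, with 0 without 27-month replicates 0, 3, 7 or 8. Map1lc3a in the diaphragm ranged from -0.017 to 0.033, a value without direction. Leaving out the diaphragm library that stood apart at 18 months, an alternative chosen after seeing the data, left 2 members past the adjusted p there.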
